A study of Rattus norvegicus with 4 samples.

Results

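The abundance of transcripts in pancreatic islets of control rat pups was described at postnatal day 14, from the 4 control samples of a series of 8. The controls were Sprague Dawley pups whose dams had sham surgery at embryonic day 18. Total RNA of their isolated islets was amplified, labelled and hybridised to 4 arrays of 1 slide, 1 control sample to each array. Replicates 1 and 2 were read in Cy3 and replicates 3 and 4 in Cy5, and the sample in the other colour of each array was not analysed here. The submitters call the samples biological replicates, but sex, litter and the number of pups in a sample are not given. All 4 controls were used, and 26430 of the 26456 gene names on the array were measured in every one of them. The gene lists described here were drawn up with results of these data known.

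Islets of Langerhans are small endocrine organs scattered through the exocrine pancreas. Beta cells secrete insulin when glucose rises, alpha cells secrete glucagon when it falls, and delta, PP and epsilon cells secrete somatostatin, pancreatic polypeptide and ghrelin. In suckling rats the beta cells are still maturing: they grow in number, and the machinery that couples glucose to secretion is being completed around weaning. Islets are usually isolated by digesting the exocrine tissue away, and they carry their own vessels, stroma and resident immune cells.

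For each control sample, the level of a gene was its background-subtracted signal divided by the 75th percentile of all probes in that channel, on a log2 scale. A level of 0 is thus the 75th percentile, and 1 unit is a 2-fold step. Errors are SDs over the 4 samples. Values below -4.95 were set to that floor, where they have no order. A gene was called detected where the scanner marked its probe well above background. The median signal ran from 107 units in replicate 1 to 823 units in replicate 3, and the number of genes detected was 17771, 19573, 19888 and 20305 in replicates 1 to 4. Among 153 negative control spots, at most 2 were detected in any channel, and 0 spots were saturated. Replicate 1 stood apart. Across the 17545 genes detected in all 4 samples its levels correlated with those of the other samples at r from 0.969 to 0.976, against 0.988 to 0.993 among replicates 2, 3 and 4 (genes are not independent replicates). Its range was narrower: among genes with a mean level above 3 it lay 0.34 below the other samples in the median, and among genes below -3 it lay 0.33 above them. Values without replicate 1 are given where they change a result.

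The order of signals is not the order of transcript numbers, because probes differ in how strongly they bind and transcripts in how well they are amplified. Of 2372 genes with at least 2 probes detected in all 4 samples, the brightest and dimmest probe of the gene differed by a median of 2.06 log2 units, and by more than 1 unit for 73.8% of the genes. Ranks below are ranks of signal. In RNA from whole islets, fewer cells of a type and less RNA per cell cannot be told apart.

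The probes behind the brightest hormone signals are shown because they set what those signals mean. Rats have a pair of insulin genes, and both insulin probes lie in the coding sequence of the B chain of the hormone. They were designed on the rat assembly rn4, Ins1 at chr1:258001385-258001444 on the plus strand and Ins2 at chr1:202936227-202936286 on the minus strand. Capitals mark the bases at which the probes differ where they overlap. In the glucagon probe, at chr3:44436079-44436138 on the minus strand, capitals mark the codons of the pair of basic residues just before glucagon, where the precursor is cleaved.
Ins1 probe: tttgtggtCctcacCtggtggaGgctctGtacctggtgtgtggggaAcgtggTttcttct
Ins2 probe: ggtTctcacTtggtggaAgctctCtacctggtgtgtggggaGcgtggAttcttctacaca
Gcg probe: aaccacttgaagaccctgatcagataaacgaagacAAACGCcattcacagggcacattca
The insulin probes share 49 of 55 aligned bases and differ at 6. How far each binds the other gene's transcript was not tested, so their signals are read here as insulin signals and not as separate measures of the 2 genes.

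The 9 islet hormones were all detected in all 4 samples, beside 66.4% of all genes, and 7 of them ranked in the top 1% of signals. Ins1 and Ins2, which encode insulin, had the brightest mean signals on the array, at 8.05 ± 0.70 and 7.92 ± 0.79. Gcg, which encodes glucagon, ranked 6 at 7.60 ± 0.77, and Iapp, islet amyloid polypeptide co-secreted with insulin, ranked 9 at 7.22 ± 0.48. Ppy (pancreatic polypeptide), Pyy (peptide YY) and Sst (somatostatin) followed at ranks 19, 59 and 107. Npy, a peptide of immature islet cells and nerves, ranked 647, and Ghrl (ghrelin) ranked 1638.

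In replicates 1 to 4 the Ins1 level was 7.05, 8.39, 8.12 and 8.63, and the Ins2 level was 6.78, 8.28, 8.03 and 8.58. Gcg was at 6.50, 8.03, 7.65 and 8.21, and Iapp at 6.55, 7.39, 7.26 and 7.69. For each of these genes replicate 1 was the low sample and the other 3 lay close together. Ppy was at 5.74, 7.71, 7.30 and 7.66, Pyy at 5.48, 7.42, 7.29 and 6.88, and Sst at 6.06, 6.88, 6.48 and 6.67. Npy was at 4.32, 4.68, 4.80 and 5.13, and Ghrl at 2.99, 3.41, 3.10 and 3.24. Ghrl varied least of the 9, with an SD of 0.18.

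All 9 hormones were lowest in replicate 1, as were 35.1% of all genes detected in the 4 samples. Other bright genes were low there too: of 89 cytosolic ribosomal protein genes detected in all samples, 75 were lowest in replicate 1. The hormone count was 7 when Agilent's processed signals were used and 6 after quantile normalization. The summed hormone level on the linear scale was 618, 1610, 1330 and 1750 times the 75th percentile, 2.83 times higher in replicate 4 than in replicate 1. The median SD of the hormones was 0.697, beside 0.257 over all genes, and 0.232 without replicate 1. Replicate 1 also had the lowest median signal, and the part of this in the hormone result was not tested. A probe for Ppy and a probe for Pyy other than those ranked gave mean levels of 6.16 and 6.54, so both genes were bright on either probe. Some spots of Ins1, Ins2, Gcg and Iapp carried an outlying local background, which was replaced by the median of the channel, and leaving such spots out leaves these genes without a value.

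**Figure D1:**
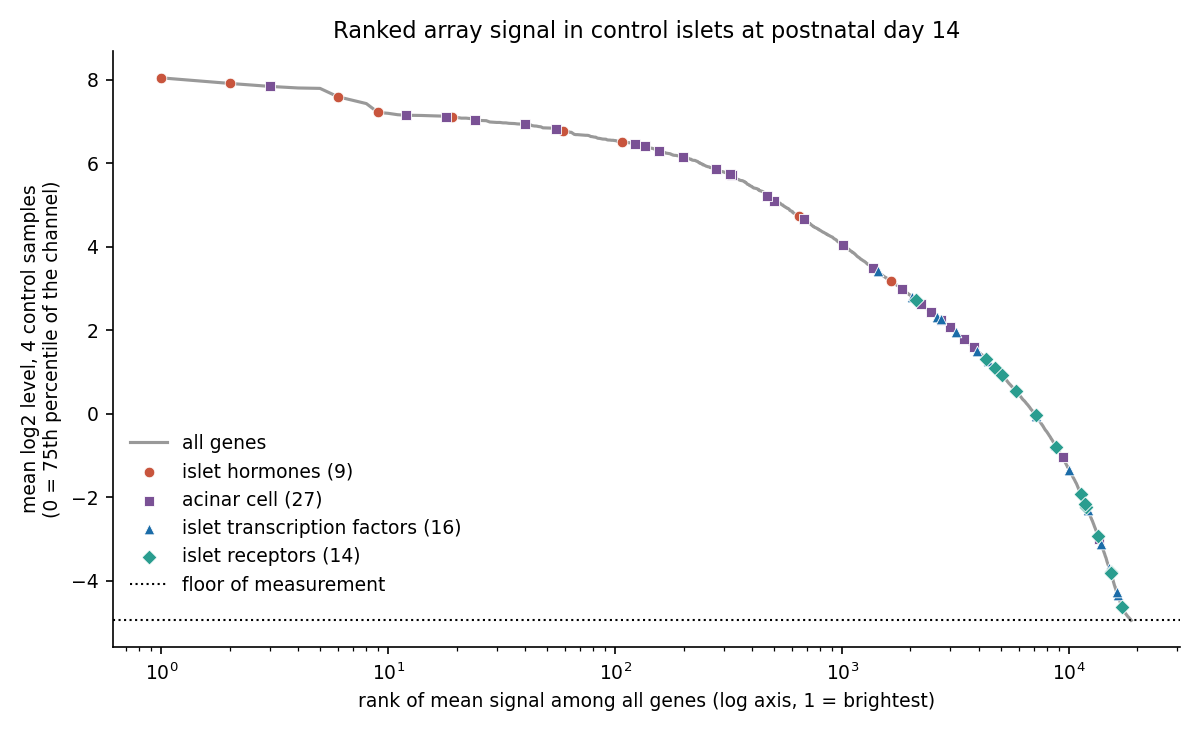
Mean log2 level of every gene not at the floor in all samples (grey line) against its rank of signal on a log axis, with islet hormones, acinar genes, islet transcription factors and islet receptors marked; the dotted line is the floor at -4.95. Ins1, Ins2, Gcg and Iapp lie within the first 9 ranks beside acinar genes, while transcription factors and receptors spread down the slope to the floor.

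Beside hormones, ribosomal proteins and digestive enzymes were common at the top of the ranking. Of the 30 brightest genes, 11 encode cytosolic ribosomal proteins, 5 are islet hormones, 4 are acinar genes and 10 are none of these. Rpl41 and Rplp0, proteins of the large ribosomal subunit, ranked 4 and 8 at 7.81 and 7.43. Ctrb1, the digestive protease precursor chymotrypsinogen B, ranked 3 at 7.0, 8.41, 7.60 and 8.37 in the 4 samples. It was low in replicate 1 like the hormones, but higher in replicates 2 and 4 than in replicate 3, which was its lowest sample with processed signals and after quantile normalization.

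Resp18, a protein of neuroendocrine secretory granules, ranked 7 at 6.81, 8.02, 7.41 and 7.80. Stfa2, a stefin-type inhibitor of cysteine proteases, ranked 5 at 7.72, 8.18, 7.43 and 7.86, and was the brightest gene of replicate 1. Hba-a2, an alpha chain of haemoglobin, ranked 13 at 6.75, 7.25, 7.30 and 7.31. Actg1, cytoplasmic gamma actin, was the most even of the 30, at 6.90, 7.12, 7.03 and 7.05 (SD 0.09). Of the 100 brightest genes, 38 were ribosomal, 6 were hormones, 6 were acinar and 5 came from the mitochondrial genome. Ranked within each sample, 59 genes were in the top 100 of all 4 samples and 5 in the top 10 of all 4. Among replicates 2, 3 and 4 these counts were 70 and 6. The 10 brightest genes took 2.03% to 3.55% of the summed signal of a sample, and the 1000 brightest took 57.2% to 66.4%.

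Most genes that make and pack hormones were bright, with 10 of 17 above the 90th percentile of signal. All 17 measured genes for hormone processing and granule cargo were detected in the 4 samples, beside 66.4% of all genes. Their median percentile was 92.9, beside 50 for all genes. Scg5 (the chaperone 7B2 of prohormone convertase 2) was at 6.25, 6.92, 6.36 and 6.81, and Scg2 (secretogranin II) at 5.35, 5.93, 5.83 and 6.34. Chga (chromogranin A) was at 4.87, 5.72, 5.41 and 5.33. All 3 were lowest in replicate 1, but none of them after quantile normalization. Of the converting enzymes, Cpe (carboxypeptidase E) was at 5.11, 5.45, 5.50 and 5.41 (SD 0.17), Pcsk2 at 4.24, 3.92, 3.69 and 4.22, and Pcsk1 at 2.80, 3.48, 3.35 and 3.32. Pcsk1 and Pcsk2 had SDs of 0.30 and 0.26, about the 0.257 of all genes. Pcsk1 was lowest in replicate 1, while Pcsk2 was highest in replicates 1 and 4, whose values lay close together.

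Slc30a8, the zinc transporter of insulin granules, was at 2.18, 2.28, 1.98 and 2.47. Ttr (transthyretin), a secreted carrier protein made by alpha cells, was at 1.44, 2.55, 2.62 and 1.77, high in replicates 2 and 3 and low in replicates 1 and 4. The dimmest of the 17 were Vgf, a granule peptide precursor, at -0.35 ± 0.11, Ero1lb, an oxidase that helps fold proinsulin, at -1.11 ± 0.12, and Sytl4, the granule protein granuphilin. Sytl4 was at 0.01 in replicate 1 and at -1.61, -1.74 and -1.57 in the others, so that replicate 1 alone set its SD of 0.83 (0.09 without it).

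**Figure D2:**
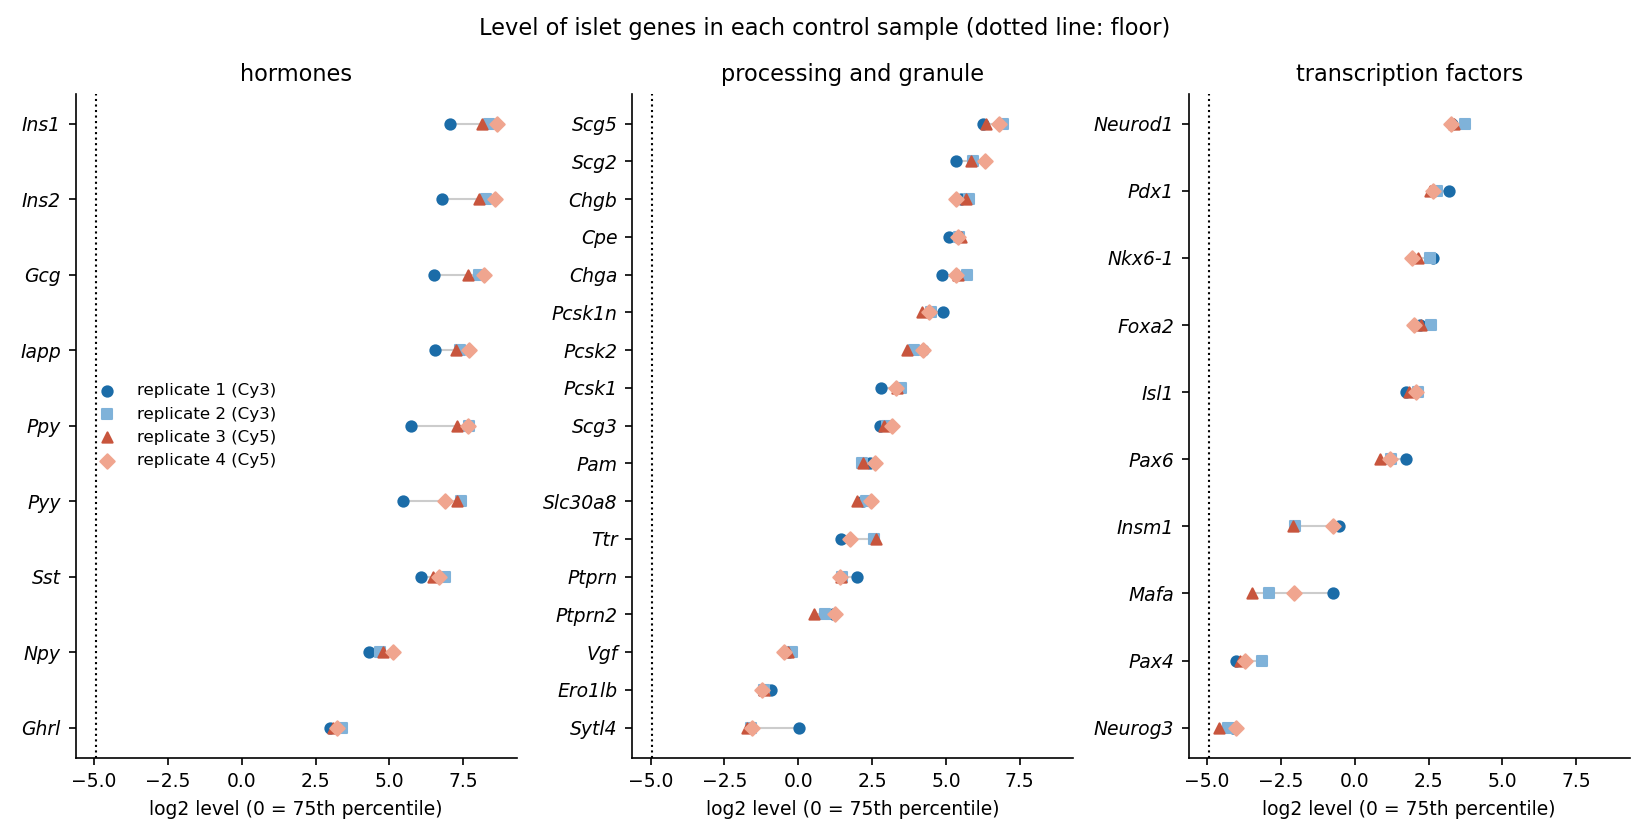
Log2 level of each hormone, processing or granule gene and described transcription factor detected in all 4 control samples, with 1 point per sample (replicates 1 and 2 in Cy3, replicates 3 and 4 in Cy5); grey lines join the lowest and highest sample and the dotted line is the floor. Replicate 1 is the lowest sample for all 9 hormones, whereas it is the highest for Sytl4, Insm1 and Mafa.

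Transcription factors of the endocrine lineage ran from the upper 10% of signals, but below the top 1%, down to near the floor. Of 17 measured, 16 were detected in all 4 samples, beside 66.4% of all genes, with a median percentile of 72.9. Neurod1, needed for insulin transcription and islet formation, was the brightest at 3.30, 3.74, 3.35 and 3.25. Pdx1, the beta cell and pancreas master regulator, was at 3.19, 2.80, 2.53 and 2.66, and Nkx6-1, which keeps beta cell identity, at 2.67, 2.56, 2.13 and 1.95. Both were highest in replicate 1, the sample with the least insulin signal, but with median centring or normexp background correction Nkx6-1 was highest in replicate 2. The probes for Foxa2 and Isl1, factors shared by several islet cell types, gave 2.26 ± 0.23 and 1.95 ± 0.19, and Pax6, shared by all endocrine cells, was at 1.74, 1.24, 0.87 and 1.20.

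Mafa and Insm1 were dimmer and less even. Mafa, which drives insulin transcription in mature beta cells, was at -0.72, -2.91, -3.48 and -2.07. It was the only one of 88 core islet genes with an SD above 1, at 1.20, and the SD was 0.71 without replicate 1. Insm1, a zinc finger factor of endocrine cells, was at -0.52, -2.03, -2.10 and -0.72, high in replicates 1 and 4. Pax4 (-3.69 ± 0.39) and Neurog3 (-4.26 ± 0.25), factors of endocrine progenitors, were detected in all 4 samples but lay close to the floor, as did Hnf4a at -4.34 ± 0.52. For Foxa1 the ranked probe was not well above background in any sample, and its other probe was detected in 2 samples with signals at the floor. Nkx2-2, Glis3 and Mnx1 had no matched probe here.

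Of the measured genes that couple glucose to insulin release, 9 of 9 were detected in all 4 samples, beside 66.4% of all genes. Abcc8, the sulphonylurea receptor subunit of the ATP-sensitive potassium channel, was at 4.56, 5.0, 4.54 and 4.66. Slc2a2, the GLUT2 glucose transporter, was at 3.53, 4.01, 3.74 and 4.19. Both differed little between samples, with SDs of 0.21 and 0.29. Kcnj11, the pore of the same potassium channel, was at -0.98, -2.55, -2.82 and -2.11, and replicate 1 again gave the highest value of a dim islet gene. Cacna1d, a pore subunit of voltage-gated calcium channels, was dim at -3.71.

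All 14 islet receptors were detected in the 4 samples, beside 66.4% of all genes, with a median percentile of 62.0. The calcium-sensing receptor Casr was the brightest at 2.30, 3.07, 2.61 and 2.94. The incretin receptors were dimmer: Gipr, for the peptide GIP, was at 1.09, -0.19, -0.69 and -0.37, and Glp1r at -0.32, -0.91, -1.03 and -0.90. The other Glp1r probe had a mean of -2.07. Prlr, the prolactin receptor, was at -2.06, -3.49, -3.52 and -2.62, and the fatty acid receptor Ffar1 at -2.71, -4.10, -4.47 and -3.89. Each of the last 4 was highest in replicate 1 and lowest in replicate 3, except that Glp1r was lowest in replicate 4 with median centring, Prlr in replicate 2 with processed signals, and Prlr and Ffar1 tied at the lowest value with normexp. Of the 14, 8 were highest in replicate 1, beside 37.2% of all genes, and 8 were lowest in replicate 3 (5 with normexp background correction), beside 24.9%. Dim genes at large lay higher in replicate 1, by a median of 0.096 at mean levels from -3 to -1 and of 0.333 below -3. Whether the receptors differ in this from other genes of their level was not tested. Among the 4 measured somatostatin receptor genes, Sstr3 (0.92) and Sstr2 (0.54) gave the brighter signals and Sstr5 (-3.83) the dimmest, but the other Sstr2 probe had a mean of -3.29, so this order rests on the probe taken. Insr, the insulin receptor, lay near the floor at -4.62.

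The 17 exocytosis genes were all detected in the 4 samples, beside 66.4% of all genes, with a median percentile of 83.1. Rph3al, the Rab effector Noc2 of dense granules, was brightest at 3.37 ± 0.29, followed by Cadps at 2.85 ± 0.22, a priming factor. Their other probes gave means of only -3.99 and -2.16, so these ranks hold for the brightest probe alone. Of the 3 SNARE proteins that fuse granules, Stx1a stood at 1.89, Snap25 at 1.52 and Vamp2 at 0.69. Snap25 was even over the samples, at 1.40, 1.70, 1.44 and 1.54, although its other probe gave -0.12. The synaptotagmins, the calcium sensors of release, spanned a wide range. Syt5 was at 2.33 and Syt4 at 1.23 (-3.16 on its other probe), whereas Syt7 was at -3.44 and Syt9 was at -3.91, -4.91, -4.95 and -4.29, with replicate 3 at the floor.

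Markers of beta cell maturity and of immature islet cells were detected side by side. The counts in all 4 samples were 6 of 6 and 7 of 7, beside 66.4% of all genes. Ucn3 (urocortin 3), which appears late in beta cell maturation, was at 3.13, 2.63, 2.50 and 2.81. On the immature side, H19, a maternally expressed imprinted RNA, was at 5.36, 4.39, 4.94 and 4.28, and its paternally expressed neighbour Igf2, a fetal growth factor, at 4.52, 3.75, 3.92 and 3.68. Both were highest in replicate 1. Dlk1, another imprinted gene of immature and endocrine cells, was at -2.14 in replicate 1 and at -3.86, -3.87 and -4.04 in the others. Hes1, a target of Notch signalling, was even at -1.54 ± 0.13.

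Genes that mature beta cells are known to keep silent were present in this RNA. Of 19, 17 were detected in all 4 samples, beside 66.4% of all genes. Ldha (lactate dehydrogenase A) was the brightest at 3.83, 3.73, 4.13 and 4.05. Igfbp4 (3.63), Arhgdib (3.58) and Ndrg2 (3.44) followed, and Hk1, a hexokinase with high affinity for glucose, was at 1.74. These genes are expressed by stroma, vessels and blood cells, whose markers were also present, and the cells they came from were not tested. The monocarboxylate transporter Slc16a1 was dim at -2.95, Hk2 was detected in 1 sample, and Smad3 was not well above background in any.

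Acinar cells, which make the digestive enzymes, had the highest median percentile of the lists for other cell types. All 27 of their genes were detected in the 4 samples, beside 66.4% of all genes. Their median percentile was 98.2, and their summed level was 816, 2050, 1130 and 3010. Rnase1, the pancreatic ribonuclease, was at 5.88, 7.42, 6.57 and 8.29. Pnlip, pancreatic lipase, was at 0.68, 1.94, 1.07 and 4.61. Ptf1a, the acinar transcription factor, was at -1.17, -0.97, -2.13 and 0.09. Replicate 4 was the highest sample for each of these and for 24 of the 27 genes, beside 26.5% of all genes, and that count stayed between 22 and 24 under every other scaling and background setting. The median SD of the acinar genes was 0.927, and 0.856 without replicate 1.

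Duct, vessel and stroma genes were also plentiful, and more even. Of 14 duct genes 13 were detected in all 4 samples, beside 66.4% of all genes. Among them were Krt19, a keratin of ducts, at -0.59, 0.47, 0.80 and 0.53, and Cftr, the chloride channel, at -2.15, -0.26, -0.41 and -1.21. Both were lowest in replicate 1. Sox9, a duct and progenitor factor, was detected in 3. Replicate 2 was the highest sample for 7 of the 13 (6 with normexp, with processed signals and after quantile normalization), beside 19.8% of all genes. All 12 endothelial genes were detected: Plvap, a protein of fenestrated capillaries such as those of islets, was at 6.03, 6.06, 6.25 and 5.79, and Kdr, the VEGF receptor, at 4.83, 4.46, 4.64 and 3.90. Eng (endoglin) was at 1.04 in replicate 1 and at -0.78, -0.48 and -0.49 in the others. Of the 12, 10 were highest in replicate 1, beside 37.2% of all genes, a count that fell to 6 with median centring and 7 with normexp background correction.

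All 13 fibroblast genes were detected in the 4 samples, beside 66.4% of all genes. They were led by Sparc (6.67), Col3a1 (6.10) and Col1a2 (6.02), which encode matrix proteins. The summed level of the fibroblast genes, set mostly by the brightest of them, differed by 1.13 times between the lowest and highest sample. Of the 13, 9 were lowest in replicate 2 (4 with median centring), beside 19.9% of all genes. In replicate 1, 8 were highest (4 with median centring), beside 37.2% of all genes. All 8 smooth muscle genes were detected, with Actg2, enteric gamma actin, at 5.92 in replicate 1 and at 4.34, 3.84 and 4.40 in the others. Schwann cell genes were detected in 8 of 9 cases, Mbp (0.59, and -2.25 on its other probe) among them, and Gfap was not well above background in any sample.

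Summed levels of immune cell genes differed from sample to sample. All 13 macrophage genes were detected, with Lyz2 (lysozyme) at 4.94, the complement gene C1qb at 3.14, and Csf1r, the receptor for macrophage growth factor, at -0.42, -2.81, -1.80 and -1.99. Replicate 2 was the lowest sample for 11 of the 13 (5 with median centring), beside 19.9% of all genes. Of 15 T and NK cell genes, 10 (66.7%) were detected in all 4 samples, near the 66.4% of all genes, and all 15 in replicates 2, 3 and 4. Their summed level was 1.86, 2.29, 9.48 and 3.10, with 8 of the 10 highest in replicate 3 (6 with normexp), beside 16.3% of all genes. Cd3g, a chain of the T cell receptor complex, was at -3.19, -1.10, 1.44 and -0.82.

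Mast cell and granulocyte genes were high in another sample. Of 12, 9 were detected in all 4 samples, beside 66.4% of all genes, and all 9 were highest in replicate 1 (8 with median centring), beside 37.2%, with summed levels of 29.9, 5.82, 7.67 and 6.15. Cma1, mast cell chymase, was at 3.56, 1.26, 1.40 and 1.27, and S100a8, a calprotectin subunit of neutrophils, at 2.31, -0.85, 0.21 and -0.27. Mpo and Elane, of immature granulocytes, were detected in replicate 1 alone. Among red cell genes, haemoglobin was bright (Hbb at 6.19 ± 0.09, and 1.63 on its other probe), while Ahsp, a chaperone of alpha globin in red cell precursors, was at 1.51 in replicate 1 and at -0.29, -0.62 and -0.98 in the others.

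**Figure D3:**
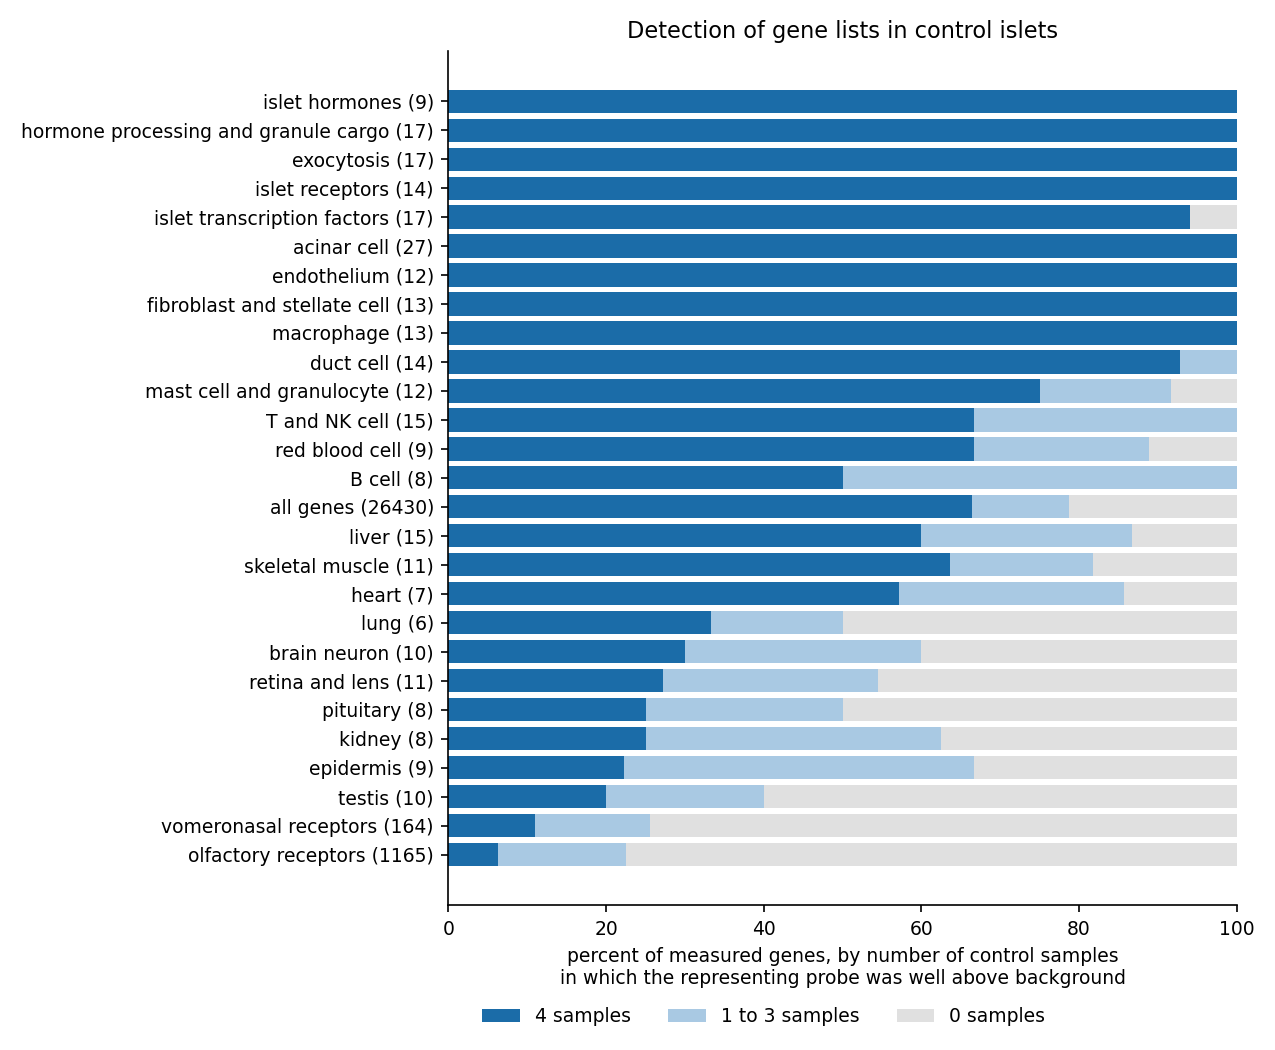
Percent of the measured genes of each list whose ranked probe was well above background in 4, in 1 to 3 or in 0 control samples, with the number of genes in brackets. Hormone, granule, exocytosis, receptor, acinar and stromal lists are detected in full, all genes at 66.4%, and olfactory receptors at 6.27%.

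Housekeeping systems filled the upper part of the ranking. Of 93 cytosolic ribosomal protein genes, 89 were detected in all 4 samples, beside 66.4% of all genes, with a median percentile of 99.3. Subunits of the respiratory chain followed: all 38 of NADH dehydrogenase (median percentile 94.2), all 18 of ATP synthase (97.0) and 16 of 17 of cytochrome c oxidase (93.8). All 40 proteasome subunits were detected, at a median percentile of 89.3. Genes for folding in the endoplasmic reticulum, where proinsulin is folded, were detected in 21 of 21 cases at a median percentile of 90.1, led by the chaperone Hspa5 (5.33 ± 0.15), the stress factor Atf4 (4.52 ± 0.16) and the disulphide isomerase P4hb (4.22 ± 0.16).

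Glycolytic enzymes had a median SD of 0.166 over 15 genes, below the 0.257 of all genes. Without replicate 1 it was 0.0981, beside 0.175 for all genes. The SD varies with level, and genes with mean levels from 1 to 3 had a median SD of 0.196. That of proteasome subunits was 0.182 and that of ATP synthase subunits 0.183. Whether glycolytic genes are more even than others of their level was not tested. Of the 15 glycolytic genes, 11 were lowest in replicate 1, beside 35.1% of all genes (8 with the median over probes, 13 with median centring). Eno1 (enolase) was at 5.61 ± 0.29 and Pkm2 (pyruvate kinase) at 4.11 ± 0.06 on their brightest probes. On their dimmest probes they were at -0.75 ± 0.56 and -3.24 ± 0.83, so the evenness of Pkm2 holds for its brightest probe. All 19 proliferation genes were detected in the 4 samples, beside 66.4% of all genes, at a median percentile of 75.1. Cdk1, the kinase that drives mitosis, was at 2.73, 2.57, 2.60 and 2.60, and Rrm2 and Pcna, needed for DNA synthesis, at 2.42 ± 0.35 and 2.29 ± 0.27. Which cells were dividing cannot be read from whole-islet RNA.

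The immediate early genes, which are transcribed within minutes of a stimulus or of handling of tissue, were bright. All 12 were detected in the 4 samples, beside 66.4% of all genes, with a median percentile of 93.3. Junb led at 4.51 ± 0.30, and Fos was at 3.29, 3.44, 3.54 and 2.49. Replicate 4 was lowest for Fos and for 10 of the 12 genes, beside 15.6% of all genes, and for 9 to 11 of them under the other settings. Genes often used as references varied unequally: Gapdh was at 3.36, 3.67, 3.75 and 3.86, Actb at 5.58, 4.85, 5.24 and 5.41, and Eef1a1 at 5.03, 6.16, 6.14 and 6.09. The smallest SD among the 15 was that of Sdha, a subunit of succinate dehydrogenase, at 0.06, and the largest that of B2m, at 0.58.

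Of all genes, 5516 (20.9%) had no probe well above background in any control sample. Lists specific to 10 other organs held 95 measured genes, of which 36 (37.9%) were detected in all 4 samples, below the 66.4% of all genes, and 32 (33.7%) were detected by no probe. Pituitary hormones Gh1, Prl and Tshb were not well above background in any sample, nor were the surfactant proteins Sftpb, Sftpa1 and Sftpc, or the glutamate receptor subunit Grin1. Of the testis genes, 2 of 10 were detected in all 4 samples, at -4.26 (Prm1) and -4.51 (Hils1). Gene families of smell were largely undetected: 73 of 1165 olfactory receptors (6.27%) and 18 of 164 vomeronasal receptors (11%) were detected in all 4 samples. Of those detected, 60 olfactory and 11 vomeronasal receptors were highest in replicate 4, beside 26.5% of all genes. Their median shifts there were 0.381 and 0.35. How far this holds for other dim genes was not tested.

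Some genes of these lists were present at moderate levels. Gad2, a glutamate decarboxylase of neurons that beta cells also express, was at 0.54 ± 0.30, and Bsn (bassoon) at 0.90 ± 0.05 (-4.12 on its other probe). Pomc, the precursor of ACTH, was at -0.27 ± 0.38. Among 15 liver genes 9 were detected in all 4 samples. Tf (transferrin) was the only gene of the organ lists above the 90th percentile, at 3.73 ± 0.08, and Alb (albumin) was at -3.18, -0.75, -0.53 and -0.69, low in replicate 1.

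The spread between the control samples was small for most genes and varied with their level. Over the 17545 genes detected in all 4 samples the median SD was 0.257, with 10% of genes below 0.108 and 10% above 0.581. It was 0.175 without replicate 1, and 0.27, 0.265 and 0.254 without replicates 2, 3 and 4. By mean level, the median SD was 0.348 below -3, 0.292 from -3 to -1, 0.223 from -1 to 1, 0.196 from 1 to 3 and 0.246 above 3. Replicates 2 and 3 differed by a median of 0.15 and were within 2-fold for 98.3% of genes, whereas replicates 1 and 3 differed by 0.385 and were within 2-fold for 87.2%. For 1247 probes printed 10 times on the array and detected in all samples, the median SD over the spots of a sample was 0.212 to 0.22. The median SD over the 4 sample means was 0.205. The first is the spread of single spots and the second that of means over spots, which vary less than single spots. The values thus do not show that samples differed no more than spots.

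**Figure D4:**
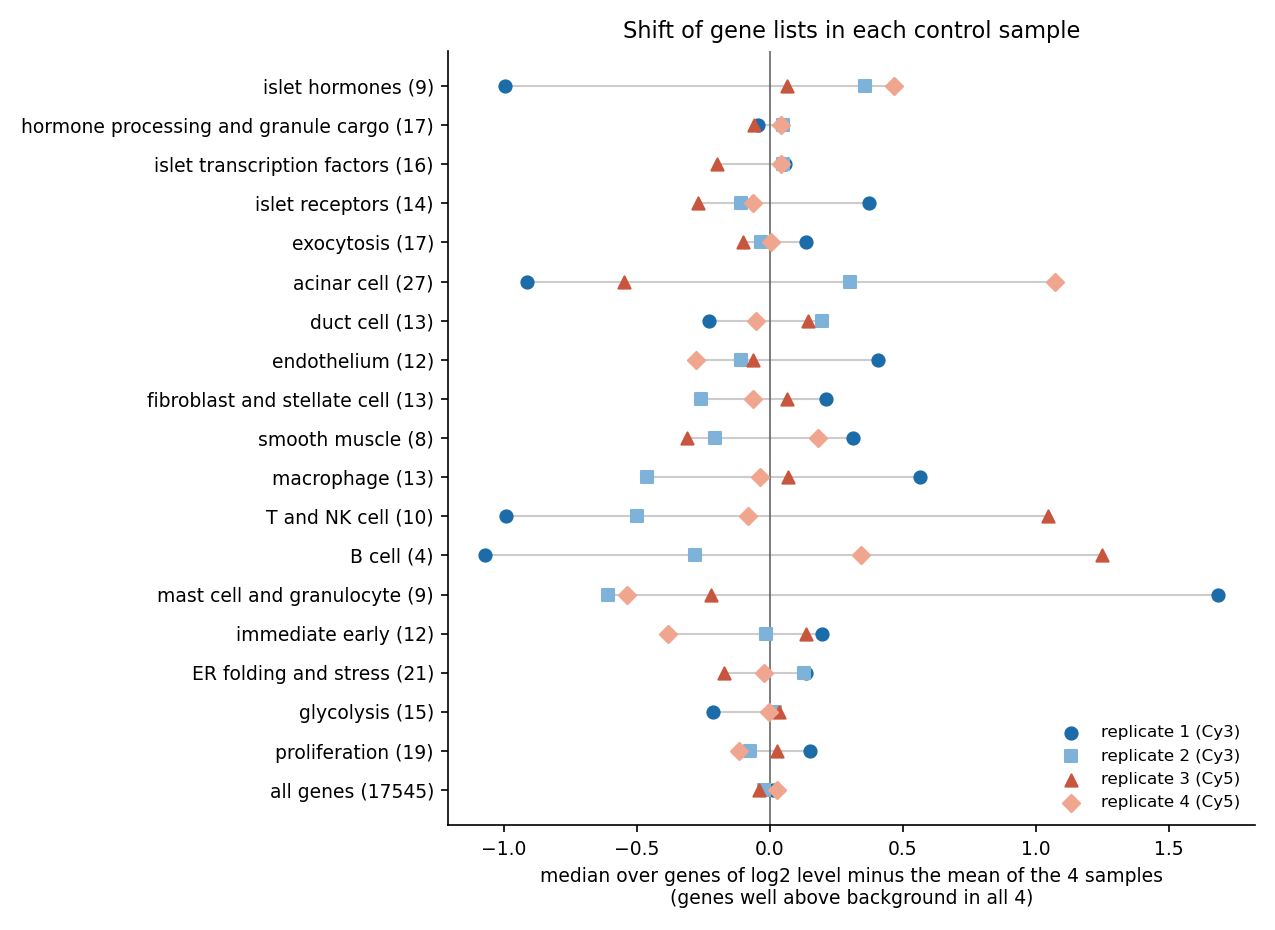
Median over the genes of each list of the log2 level in a sample minus the mean of the 4 samples, for genes detected in all 4, with 1 point per control sample. All genes lie within 0.04 of 0; hormones are shifted by -1.0 in replicate 1, acinar genes by 1.07 in replicate 4, T and NK cell genes by 1.04 in replicate 3, and mast cell and granulocyte genes by 1.68 in replicate 1.

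Set against all genes, whose median shift was between -0.04 and 0.03 in each sample, the lists moved in different samples. Cytosolic ribosomal protein genes, which are bright, shifted by -0.49 in replicate 1. Hormones shifted by -1.0 in replicate 1 (-0.45 with processed signals, -0.20 after quantile normalization), and acinar genes by 1.07 in replicate 4, -0.91 in replicate 1 and -0.55 in replicate 3. With processed signals the acinar shifts in replicates 1 and 3 were -0.62 and -0.82, and after quantile normalization they were -0.58 and -0.57. The lowest sample of the 27 acinar genes turned from replicate 1 (19 genes, 8 in replicate 3) to replicate 3 with processed signals (20, and 7 in replicate 1) and after quantile normalization (16, and 11 in replicate 1). T and NK cell genes shifted by 1.04 in replicate 3 (0.54 with normexp) and B cell genes by 1.25 (0.59 with normexp). Mast cell and granulocyte genes shifted by 1.68 in replicate 1. In contrast, the median shift of hormone processing and granule cargo genes was no more than 0.06 in size in any sample. With median centring it was up to 0.27 in size, in replicate 1. Single genes of that list moved both ways. In replicate 1, 5 of the 17 were highest and 7 lowest, beside 37.2% and 35.1% of all genes. Their median SD was 0.262, about the 0.257 of all genes, so a small median shift does not make them even. Glycolytic genes shifted by -0.21 in replicate 1 and by no more than 0.04 in the others. With median centring the glycolytic shifts were larger, at -0.44, 0.19 and 0.14 in replicates 1, 2 and 3. Centring on the median moves every gene of replicate 1 down against the other samples, since its median level was -2.65 beside -2.96, -2.90 and -2.76. With 1 group of 4 samples these shifts have no test, and the part of cell composition, dye and signal strength in them was not tested.

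The SD exceeded 1 for 249 genes (1.42%), and for 105 genes without replicate 1, 371 without replicate 2, 319 without replicate 3 and 443 without replicate 4. The largest SDs belonged to genes bright in a single sample, many of them products of the gut or of granulocytes. Tff1, a trefoil peptide of stomach mucus, was at 3.28 in replicate 1 and -2.93 in replicate 3, with replicates 2 and 4 at the floor. Cym, the stomach protease chymosin of suckling animals, was at 3.94, -0.83, -0.44 and -0.54, and Atp4b, a subunit of the gastric proton pump, at 0.11 in replicate 1 and at the floor in the others. Where a sample is at the floor, the SD depends on where the floor was set.

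Replicate 3 alone was high for a different set. Apoa1, the main protein of HDL, was at -4.46, -4.49, 2.87 and -4.13, Mamdc4, an endosomal protein of the suckling intestine, at -2.25, -2.20, 2.46 and -1.91, and Guca2a (guanylin) at -2.66, -1.97, 1.84 and -2.40. Lgals4, a galectin of gut epithelium, was at -3.52 and 0.89 in replicates 1 and 3 and at the floor in the others. A list of 22 small intestine genes, drawn up after these values were seen and so given no test, had a summed level of 87.8 in replicate 3 and of 9.77 to 10.8 in the others. It included 3 genes not detected in every sample: Apoa4 was at 5.20 in replicate 3 and -4.05 in replicate 4, Fabp1 at 3.48 in replicate 3, and Fabp2 at 3.33 in replicate 3 and -4.29 in replicate 1, with all their other values at the floor. Of the 15 genes of that list detected in all samples, 13 were highest in replicate 3, beside 16.3% of all genes.

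Replicate 1 alone was high for alpha-defensins and genes of neutrophil granules, and the cells these transcripts came from were not tested. Np4, a neutrophil defensin, was at 3.29, -0.48, -0.01 and -1.79, and Defa, an alpha-defensin, at 3.92, 0.46, 0.99 and -1.0. A list of 16 neutrophil granule and alpha-defensin genes, also drawn up after the values were seen, had summed levels of 51.4, 5.03, 7.71 and 3.35, and all 10 of its members detected in every sample were highest in replicate 1, beside 37.2% of all genes.

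At the other end, the 10 smallest SDs among genes with a RefSeq symbol in the upper 50% of levels ran from 0.0031 (Lats2) to 0.018 (Ebna1bp2), and the next gene, Pcm1, was at 0.019. Lats2, a kinase of the Hippo pathway, was at 2.44, 2.43, 2.44 and 2.44. The others were Ppap2a, Atp5f1, Fam32a, Alkbh6, Zbtb8a, Arpc1a, Plekhb2, Tfdp2 and Ebna1bp2. Their levels ran from -2.64 (Tfdp2) to 4.75 (Atp5f1, a subunit of ATP synthase), so the smallest SDs were not confined to bright genes. These genes were picked for their SDs, which lie below the median SD of 0.212 to 0.22 between spots of a probe. The values hold for scaling to the 75th percentile, and centring on the median moves the samples against each other. Whether these genes are steadier than others was not tested.

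**Figure D5:**
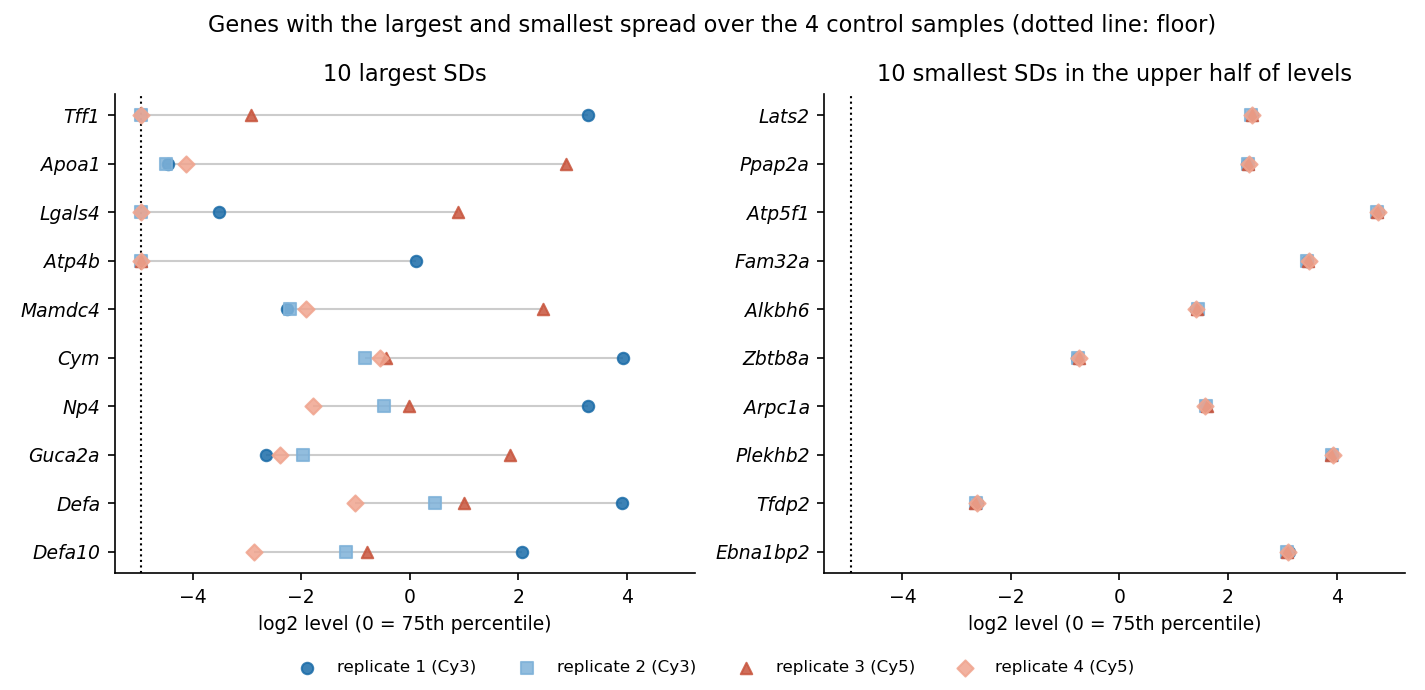
Log2 level in each control sample of the 10 genes with the largest SD and of the 10 with the smallest SD in the upper 50% of levels, among genes detected in all 4 samples; the dotted line is the floor. In the left panel Tff1, Cym, Np4 and Defa are high in replicate 1 and Apoa1, Mamdc4 and Guca2a in replicate 3; in the right panel the 4 points of each gene overlap.

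The dye of the label divided the controls into replicates 1 and 2 (Cy3) and replicates 3 and 4 (Cy5). A dye effect and a difference between these pairs of samples cannot be told apart. By limma, 0 of 19866 genes (0.0%) differed between the pairs at an adjusted p under 0.05, with 721 at an unadjusted p under 0.05 and a smallest adjusted p of 0.954. The test rests on 2 residual degrees of freedom, and its p-values measure the spread between these samples, for which separate animals are not stated. The largest differences in favour of Cy5 included Ccl19, a chemokine of lymphoid tissue, at 0.98, 2.23, 4.13 and 3.67 (difference 2.29, SE 0.57), and Reg3b, an antimicrobial lectin of pancreas and gut, at -4.13, -2.93, -1.54 and -1.24 (difference 2.14, SE 0.53). Ctsh, the lysosomal protease cathepsin H, was at 1.53, 1.57, 2.33 and 2.29. It was picked for its small unadjusted p by limma (0.0012, adjusted p 0.954) and not for the size of its difference. In the other direction, Trim16, a ubiquitin ligase, was at -1.54 and -2.47 in Cy3 and at -2.21 and the floor in Cy5. Its pairs thus overlapped, and with the median over probes it was highest in replicate 3. The pairs of Mapk8ip3 did not overlap, at -1.72 and -2.75 in Cy3 and at -4.04 and -3.42 in Cy5 (difference -1.49, SE 0.52).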

How the data were processed

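The data came from 4 two-colour Agilent arrays of 1 slide. Per the file headers, the authors scanned and extracted them with Agilent Feature Extraction 10.10.1.1 (protocol GE2_1010_Sep10), and the deposited files hold mean signals, local backgrounds and processed signals as intensity, with flags for each spot. The submitters' processing notes also name limma, with no version. The control channel of each array was used alone, so no loess between channels was applied; the other channel and the deposited ratios were not used here.

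Control spots and feature outliers were left out, local background was subtracted, and spots with an outlying local background were given the median background of their channel. The spots of a probe were averaged, divided by the 75th percentile of the channel, floored and put on the log2 scale. The probe with the highest mean level stood for a gene, and a probe was detected where most of its spots carried the flag for well above background. A further 26 gene names were left out because a channel had lost every spot. Gene names and coordinates (rn4) came from the files. By accession, 17998 probes (59.3%) matched a RefSeq table of assembly GRCr8, used for names only, and the genes singled out for their spread were taken from the 16170 with such a symbol.

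Pairs of replicates by dye were compared with limma 3.58.1 in R 4.3.3 on genes detected in at least 2 channels, with Benjamini-Hochberg adjustment; the procedure was tested on simulated data. Other values were computed with Python 3.11.15 and pandas 2.3.3. The number of arrays limits the precision. The genes and lists were chosen with earlier results of these data known. Named genes were all members of the islet lists, the brightest, dimmest and undetected members of the other lists, the 30 brightest genes, and those with the largest and smallest SD and the largest differences within and between dyes. Ctsh was added for its small unadjusted p between dyes. Lists for stomach, small intestine, neutrophil granules with alpha-defensins, mesothelium and class I genes were added after values were seen. Alternatives for background, scaling, floor, probe choice, detection flag and each left-out replicate are in the closing section. Some named genes are not reported here.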

Additional observations from a re-analysis of the deposited data

Results flagged for a closer look

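Within the 4 control samples, a value was singled out where the gap between its highest or lowest sample and the nearest other sample made up a larger share of the whole range than Dixon's 95% limit for 4 samples, which chance passes for about 1 in 20 groups. Lists drawn up after values were seen, and genes picked for the size of their spread or of their differences, were not tested. The limit was passed by 0 of 8 measures of sample quality, 4 of 36 summed list levels and 8 of 67 single genes. The genes were described with their values known, so these counts are not read against the chance rate.

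Replicate 1 was the sample apart for 3 of the lists. Its sum was high for mast cell and granulocyte genes (ratio of gap to range 0.923). It was low for reference genes (0.886) and for the dim pituitary genes (0.953). A sum rests mostly on the brightest genes of a list. The reference genes had a median shift of only -0.046 in replicate 1, where 7 of 15 were lowest and 4 highest. Those shares were 35.1% and 37.2% of all genes. Of the 8 pituitary genes, 5 were at the floor in all samples. Replicate 3 was high for T and NK cell genes (0.837).

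All 8 single genes were set apart by replicate 1. It was high for Sytl4 (0.9), Dlk1 (0.906), Eng (0.833), Cma1 (0.94) and Cdk1 (0.844), and low for Hba-a2 (0.892), Eef1a1 (0.935) and Alb (0.918). For Cdk1 and Hba-a2 this depended on the setting. With median centring Cdk1 was highest in replicate 2 and lowest in replicate 1, and with normexp it was highest in replicate 3. Hba-a2 was lowest in replicate 3 with processed signals and in replicate 4 after quantile normalization. Without replicate 1 the SD of Sytl4 fell to 0.09. Replicate 1 had the lowest signals of the 4, and the part of this in these values was not tested.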

How the results depend on the processing

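Leaving out each replicate in turn gave 17553 to 19222 genes detected in every remaining sample, 5594 to 6061 detected in none, a median SD of 0.1745 to 0.2699 and 0 genes that differed between dyes. Other settings gave 17528 to 20322 genes detected in all samples and a median SD of 0.2218 to 0.3011. The count of genes detected in no sample fell to 2530 with the scanner's positive and significant flag, which is less strict, and was 5525 when every probe's spots had to carry the flag and 6311 when probes were counted in place of genes. The dye comparison called 0 genes under each of its 15 alternatives, with 230 to 3813 genes at an unadjusted p under 0.05; the 3813 came without replicate 2. With each replicate left out, the Cy5 minus Cy3 difference ranged from -0.714 (without replicate 3) to 5.124 for Lgals4. Without replicate 1 it turned its sign for Tff1 (-7.221 to 1.012), Cym (-4.431 to 0.334) and Prtn3 (-3.042 to 0.199), and came to 0.000 for Atp4b, at the floor in all samples left (-5.061 to 0.000). These genes were bright in the sample left out. Over 146 named genes and 13 settings, the percentile of the level stayed within its spread in 1796 comparisons and moved in 91, of which 51 came from taking the median over probes and 24 from processed signals. The SD moved in 20 of 1887. Leaving out spots with outlying backgrounds removed 11 bright genes, among them Ins1, Ins2, Gcg, Iapp and Abcc8, because every spot of theirs was lost in a channel. No paired analysis was possible because the control samples form 1 group. Signal over background limits the dim genes most: levels near -4.95 have no order, and replicate 1 missed 1677 genes that the other 3 samples detected.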

Other observations

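The following genes of the control islets were picked out after their values were seen and have no test. Msln (mesothelin), a surface protein of mesothelium, was among the brightest non-ribosomal signals at 6.88 ± 0.11, while other mesothelial genes were dim, with Wt1 at -1.64 and Upk3b at -4.31, so that 1 of 8 genes of that list lay above the 90th percentile. Tff2, a trefoil peptide of stomach and duct, was at 3.86 ± 0.76, and Gast, the precursor of gastrin, at 0.62 ± 0.29. Muc6, a gland mucin, was at 2.51 ± 0.52, but at the floor in all 4 samples on its other probe. Summed over 13 stomach genes the level was 59.4, 26.4, 17.8 and 42.9, with 4 of 9 genes detected in every sample highest in replicate 1 and 5 in replicate 4, beside 37.2% and 26.5% of all genes. Cdx1, an intestinal transcription factor, was even at 2.49 ± 0.25, unlike most genes of the small intestine list.

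Genes of the class I region RT1-CE had summed levels of 16.0, 14.7, 17.8 and 6.40, and 6 of 8 were lowest in replicate 4 (5 with normexp), beside 15.6% of all genes. Among adipocyte genes, Fabp4 (2.72 ± 0.40) and Cfd (2.12 ± 0.55) were detected in all 4 samples and Lep in 1. Genes with a RefSeq symbol were detected in all 4 samples in 71.7% of cases, and the 10260 names without such a symbol in 57.9%.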
